A study of Mus musculus with 6 samples.

Results

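Expression of 10 lipid droplet coat and lipolysis genes was examined in the livers of HFD-fed mice with and without allantoin. The genes were chosen by name as 4 perilipins (Plin2, Plin3, Plin4 and Plin5), 2 CIDE genes (Cideb and Cidec), the triglyceride lipase gene Pnpla2, and 3 genes of its protein regulators (Abhd5, Hilpda and G0s2). All 10 were found by symbol among 54532 genes with an Ensembl identifier, and all 10 were among the 12795 genes that had enough counts to be tested. The 6 libraries came from livers of wild-type mice, which the methods describe as C57BL/6J males that were 8 weeks old at the start. Both groups were kept on a high-fat diet (HFD), first for 4 weeks without treatment and then for 4 more. Mice of the HFD+allantoin group, 3 libraries numbered 4 to 6, drank water with allantoin during the later 4 weeks, and the HFD group, 3 libraries numbered 1 to 3, did not. Allantoin is an oxidation product of uric acid. The sample labels name 2 concentrations, 0.06 and 0.3 mg/mL, without giving one for each library, and the study's own text places the RNA-seq at the higher one. No chow-fed group was analysed here, so both groups share the high-fat diet. Neither the labels nor the methods state whether each library came from a single mouse, so the p-values measure the spread between these libraries.

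A lipid droplet is a core of triglyceride and sterol ester under a single phospholipid layer, to which coat proteins bind. Perilipins cover the surface and control the access of lipases, and CIDE proteins promote the transfer of lipid between droplets, which makes droplets larger. Pnpla2 encodes adipose triglyceride lipase, which removes the first fatty acid from triglyceride in hepatocytes as in adipocytes. Abhd5 encodes its coactivator, and Hilpda and G0s2 encode small proteins that inhibit it.

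Expression is given in CPM, counts scaled to a common library size with edgeR's TMM factors, and a gene is called changed where its adjusted p, over all 12795 genes, is under 0.05. Libraries held 11326372 to 14601457 counts. The mitochondrial chromosome took 17.9% to 36.5% of the counts in HFD libraries and 6.92% to 11.4% in HFD+allantoin libraries, and the TMM factors ran from 0.756 to 0.951 in HFD libraries and from 1.12 to 1.19 in HFD+allantoin libraries. The 8 hepatocyte markers were present in every library, with 1 called higher and 4 called lower in HFD+allantoin livers. Of markers of other liver cells, 5 of 7 stellate and 3 of 8 macrophage genes were called higher with allantoin and none of either was called lower. No endothelial marker of 5 was called. Of all 12795 genes tested, 11.3% were called higher and 13.0% lower. Without HFD replicate 2, described next, 6 macrophage, 5 stellate and 2 endothelial markers (Pecam1 and Kdr) were called higher, and among hepatocyte markers 0 higher and 4 lower. The shares over all tested genes without HFD replicate 2 were 9.83% higher and 12.5% lower. With and without that library, Sox9 was called lower among the 2 tested cholangiocyte markers. Their summed levels were 189 to 309 CPM in HFD and 415 to 479 CPM in HFD+allantoin libraries for stellate markers, and 151 to 350 CPM and 372 to 415 CPM for macrophage markers. The part of these cell types in the results below was not tested, and in whole liver fewer cells of a type and less RNA per cell cannot be told apart.

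HFD replicate 2 stood apart, since it held transcripts of adipose tissue. Plin1, the perilipin of white adipocytes, was at 49.2 CPM in this library and at 0 to 0.0733 CPM in the other 5. Adipoq, the gene of the adipocyte hormone adiponectin, was at 51.4 CPM there and at 0 to 0.0733 CPM elsewhere. Fabp4, a fatty acid carrier of adipocytes, was at 256 CPM there and at 2.78 to 11.1 CPM elsewhere. Lep, Retn, Aoc3 and Trarg1 showed the same order, with 11.4 to 33.2 CPM in HFD replicate 2 and at most 0.710 CPM in any other library. Ucp1, the uncoupling protein of brown adipocytes, was at 2.57 CPM in this library and at 0 in the others. Of the white adipose markers listed, 12 were found in the table, and not all of them set this library apart. Cfd ran from 35.6 to 122 CPM and Car3 from 2473 to 4140 CPM over all 6. Among the 5 tested white adipose markers Adrb3 was called lower with allantoin, also without this library, and so was Elovl3 among 2 tested brown adipose markers. Because adipocytes use many of the genes studied here, the fold change and call of each of the 10 genes, their order in level and the ratios between them are also given without HFD replicate 2.

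**Figure D1:**
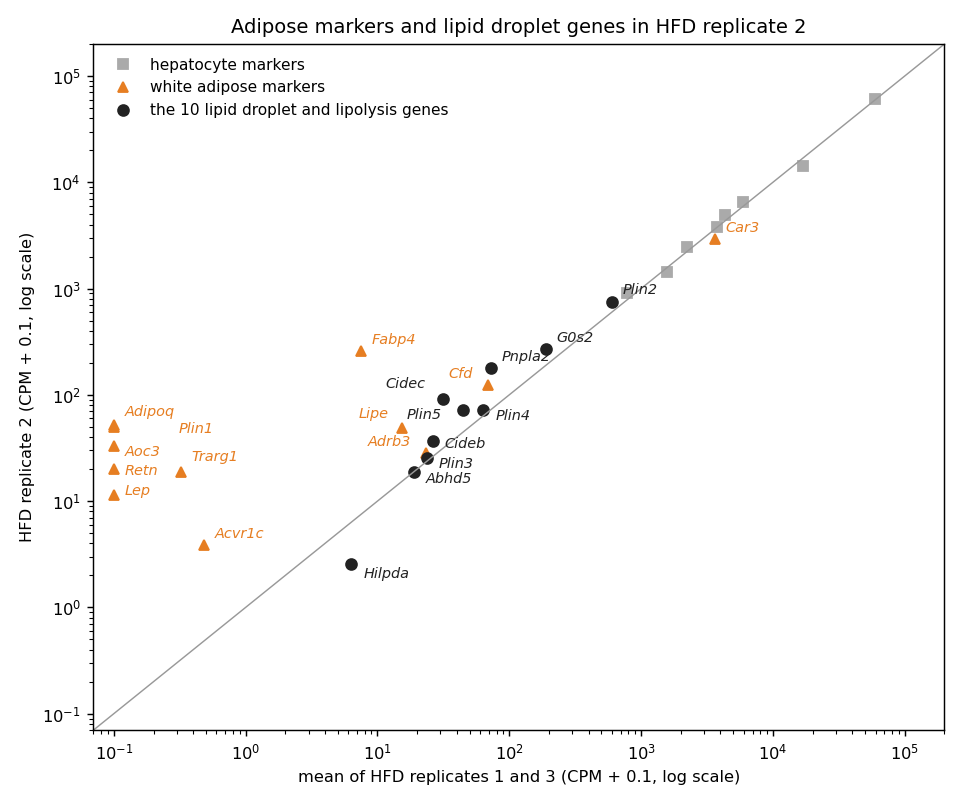
Level of each gene in HFD replicate 2 (vertical axis, CPM + 0.1, log scale) against the mean of HFD replicates 1 and 3 (horizontal axis, CPM + 0.1, log scale), for the 10 lipid droplet and lipolysis genes (black circles), white adipose markers (orange triangles) and hepatocyte markers (grey squares), with the line of equal levels. Adipoq, Plin1, Aoc3, Retn and Lep lie far above the line at the left edge, Cidec and Pnpla2 lie at 2.94 and 2.47 times the mean of the other 2 HFD libraries, and Hilpda lies below the line.

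Among the 10 genes, 2 exceeded the other HFD libraries most in HFD replicate 2, namely Cidec, with 2.94 times their mean, and Pnpla2, with 2.47 times. Plin5 followed with 1.63 times, Plin2, Plin3, Plin4, Cideb and G0s2 lay between 1.08 and 1.44 times, and Abhd5 was at 0.984 times. Hilpda was at 0.399 times the mean of the other HFD libraries.

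Plin4 and Plin5 are close neighbours, and only the first of them was called changed. Both lie on the minus strand of chromosome 17 (GRCm38, GENCODE M21), Plin4 at chr17:56100591-56109803 and Plin5 at chr17:56111601-56117596, with 1797 bases between the genes. Plin3 lies 159879 bases further on, at chr17:56277476-56292873 on the same strand. The 250 bases before the RefSeq start of Plin4, of Plin5 and of Hilpda, the gene called without HFD replicate 2, are shown in the direction of transcription, from windows of build GRCm38.p6 at chr17:56109783-56110032, chr17:56117549-56117798 (both minus strand) and chr6:29272238-29272487 (plus strand). Capitals mark 4 short motifs, searched on both strands as exact letters. They are the TATA core (letters TATAA), the box named CCAAT, the nuclear receptor half-site (letters AGGTCA) and a hypoxia core (letters ACGTG). Other forms of the core of the hypoxia response element were not searched. The letters ATTGG stand for the box on the opposite strand.
Plin4: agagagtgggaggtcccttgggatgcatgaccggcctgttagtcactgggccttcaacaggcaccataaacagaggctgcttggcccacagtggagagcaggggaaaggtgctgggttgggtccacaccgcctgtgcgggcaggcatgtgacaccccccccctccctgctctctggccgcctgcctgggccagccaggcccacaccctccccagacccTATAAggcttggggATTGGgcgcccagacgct
Plin5: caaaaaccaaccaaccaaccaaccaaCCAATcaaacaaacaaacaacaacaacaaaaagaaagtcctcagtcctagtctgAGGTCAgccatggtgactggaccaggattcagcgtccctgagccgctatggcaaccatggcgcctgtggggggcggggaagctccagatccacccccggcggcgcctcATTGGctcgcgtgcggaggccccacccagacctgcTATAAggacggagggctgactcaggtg
Hilpda: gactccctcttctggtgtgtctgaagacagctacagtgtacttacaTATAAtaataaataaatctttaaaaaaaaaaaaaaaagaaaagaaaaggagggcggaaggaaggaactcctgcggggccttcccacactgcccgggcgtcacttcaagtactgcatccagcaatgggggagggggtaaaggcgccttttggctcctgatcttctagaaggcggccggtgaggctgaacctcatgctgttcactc

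The TATA core began 32 bases before the start of Plin4 and 27 bases before that of Plin5. The 10 genes had 13 RefSeq windows, each from 250 bases before to 50 bases after a start. A TATA core was present in 4 of these 13 (4 genes) and in 24.9% of all 32851 RefSeq windows. A CCAAT box was present in 4 of 13 (4 genes) and in 37.4%. A half-site was present in 4 of 13, from 3 genes (Plin2, Plin5 and Abhd5), and in 16.3%. The hypoxia core in the form ACGTG was present in 2 of 13 (Plin2 and a second start of Hilpda) and in 19.6%. PPARα binds a direct repeat of the half-site with 1 base between. An exact match to that repeat was found in no window of the 10 genes and in 0.0396% of all windows. With so rare a match, its absence from 13 windows cannot show that these genes lack such sites. Inexact repeats and sequence outside the windows were not searched. The motif matches describe the letters of the windows only.

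Of the 10 genes, 1 was called lower in HFD+allantoin livers, Plin4, and none was called higher. Over all tested genes, 13.0% were called lower and 11.3% were called higher. With DESeq2 and with limma-voom the counts were likewise 1 lower and 0 higher. At an unadjusted p under 0.05, Plin3 and Cideb were higher and Plin4 and Hilpda were lower, where 18.6% of all tested genes were higher and 20.5% were lower at that level. The median log2 fold change of the 10 genes was -0.27, against -0.03 over all tested genes. Without HFD replicate 2 the count was again 1 lower and 0 higher, but the gene called was Hilpda, and the median was 0.10. In that fit 12.5% of all tested genes were called lower and 9.83% higher. Without HFD replicate 1, HFD+allantoin replicate 4 or HFD+allantoin replicate 5 no member was called, and without HFD replicate 3 Plin4 and G0s2 were called lower.

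**Figure D2:**
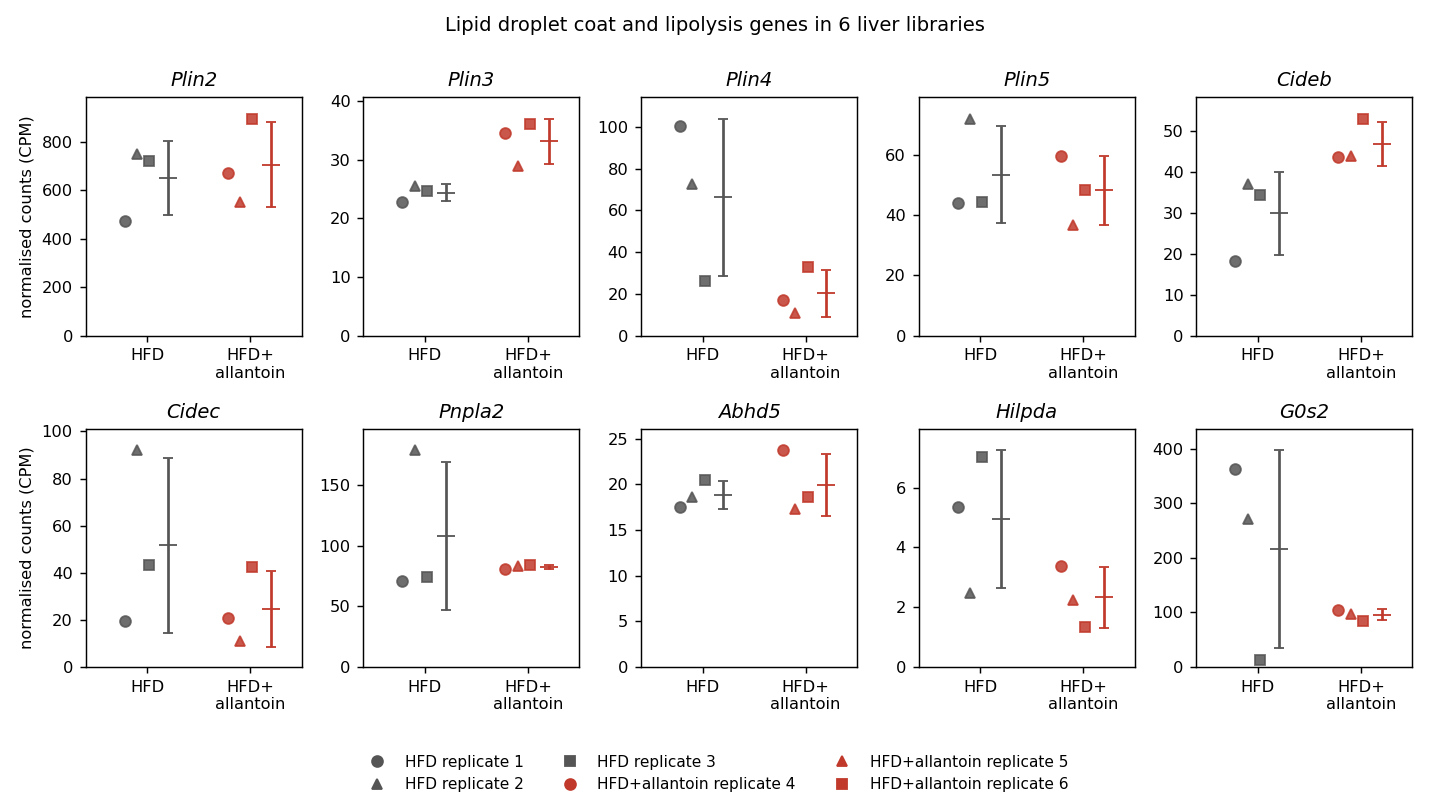
Normalised counts (CPM, vertical axes starting at 0) of the 10 genes in 3 HFD libraries (grey) and 3 HFD+allantoin libraries (red), with the mean and SD of each group beside the points. The groups do not overlap for Plin3 and Cideb, HFD replicate 2 (grey triangle) is the highest library for Cidec and Pnpla2, and HFD replicate 3 (grey square) is the lowest for G0s2.

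The groups did not overlap for 2 of the 10 genes, both higher in HFD+allantoin livers, and for none in the other direction. Over all tested genes the groups did not overlap in 22.4% with the HFD+allantoin group higher and in 21.9% with it lower. Without HFD replicate 2 the groups did not overlap for Plin3, Cideb and Pnpla2 on the higher side and for Hilpda on the lower side, against 27.5% and 27.0% of all tested genes.

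Among the perilipins, Plin2 was by far the most abundant, and Plin4 was the only one called in the fit of all 6 libraries. The Plin4 groups overlapped, and its call was lost without HFD replicate 2. Plin2, the main coat of hepatocyte droplets, had 474.5, 753 and 724 CPM in HFD replicates 1 to 3 and 674, 551 and 896 CPM in HFD+allantoin replicates 4 to 6. The 2 groups overlapped widely, and the lowest library of all was HFD replicate 1. The log2 fold change of Plin2 was 0.12 (SE 0.24, adjusted p = 0.753), with a 95% interval from -0.43 to 0.67. It was 0.24 (adjusted p = 0.566) without HFD replicate 2. A stretch of 259 bases of Plin2 is 96.1% identical to the predicted gene Gm12551, so some reads could have been assigned to either.

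Plin3, a cytosolic perilipin that moves onto small and nascent droplets, had 22.8, 25.6 and 24.8 CPM in HFD and 34.6, 28.9 and 36.1 CPM in HFD+allantoin libraries. Every HFD+allantoin library was above every HFD library, and the spread within HFD was narrow. Its log2 fold change was 0.44 (SE 0.16, 95% interval 0.08 to 0.81), and the adjusted p of 0.0721 did not pass the threshold. Leaving out HFD replicate 2 gave 0.48 (adjusted p = 0.0967).

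Plin4, which coats small droplets and is best known from adipose tissue and muscle, had 100.3, 72.6 and 25.9 CPM in HFD and 16.9, 11 and 32.8 CPM in HFD+allantoin libraries. HFD replicates 1 and 2 were above all HFD+allantoin libraries, whereas HFD replicate 3 lay below HFD+allantoin replicate 6, so the groups overlapped. Plin4 was 3.28-fold lower with allantoin, a log2 fold change of -1.71 (SE 0.51, 95% interval -2.86 to -0.56, adjusted p = 0.0396). The highest Plin4 level was that of HFD replicate 1, where Plin1 and Adipoq were at 0. HFD replicate 2, with its adipose transcripts, was at 1.15 times the mean of the other HFD libraries. The part of adipose RNA in the Plin4 difference was not tested. The log2 fold change without HFD replicate 2 was -1.64 (adjusted p = 0.0765). The call was also lost without HFD replicate 1 (-1.28, adjusted p = 0.124), HFD+allantoin replicate 4 (-1.59, adjusted p = 0.129) and HFD+allantoin replicate 5 (-1.41, adjusted p = 0.134). Scaling by library size only gave -1.25 (adjusted p = 0.0607). Plin4 shares 17 exon bases with Hdgfl2 on the opposite strand, a gene that was itself called lower (log2 fold change -1.12, adjusted p = 0.00503).

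Plin5, which tethers droplets to mitochondria in oxidative tissues, had 44.0, 71.9 and 44.2 CPM in HFD and 59.5, 36.8 and 48.2 CPM in HFD+allantoin libraries. The highest library was HFD replicate 2, and the HFD+allantoin values spanned those of HFD replicates 1 and 3. Plin5 had a log2 fold change of -0.15 (SE 0.25, 95% interval -0.71 to 0.42, adjusted p = 0.699), and without HFD replicate 2 it was 0.13 (adjusted p = 0.719).

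Neither of the CIDE genes passed the test, and their fitted differences had opposite signs. Cideb, the CIDE gene of hepatocytes, where its protein also serves the lipidation of very-low-density lipoprotein, had 18.2, 36.9 and 34.4 CPM in HFD and 43.6, 43.9 and 53.0 CPM in HFD+allantoin libraries. All HFD+allantoin libraries were above all HFD libraries, with HFD replicate 1 as the lowest. The log2 fold change of Cideb was 0.65 (SE 0.26, 95% interval 0.07 to 1.22, adjusted p = 0.0943), and 0.83 (adjusted p = 0.0660) without HFD replicate 2. With the dependence of counts on transcript length and GC content modelled in each library it was 0.91 (adjusted p = 0.0312). On the opposite strand Nop9 shares 1136 exon bases with Cideb, which is 76.3% of the exon bases of Cideb, and whether the counting used strand is not given in the sources used here. Nop9 itself differed little, by 0.05 on the log2 scale (adjusted p = 0.874), with 14.98 to 19.6 CPM over all 6 libraries.

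Cidec, whose protein drives the growth of large droplets in adipocytes and in fatty liver, had 19.5, 92.1 and 43.1 CPM in HFD and 20.6, 10.9 and 42.5 CPM in HFD+allantoin libraries. The highest value was that of HFD replicate 2, and the other 5 libraries overlapped between the groups. Cidec differed by -1.07 on the log2 scale (SE 0.58, 95% interval -2.38 to 0.25, adjusted p = 0.209). It shrank to -0.35 (adjusted p = 0.666) without HFD replicate 2.

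Pnpla2 had 70.6, 179 and 74.4 CPM in HFD and 80.9, 82.9 and 83.8 CPM in HFD+allantoin libraries. HFD replicate 2 was the one library above 84 CPM, and the 3 HFD+allantoin libraries had a coefficient of variation of 1.76%, against 56.9% in HFD. For Pnpla2 the log2 fold change was -0.39 (SE 0.33, 95% interval -1.14 to 0.36, adjusted p = 0.423). The sign turned without HFD replicate 2, to 0.19 (95% interval -0.20 to 0.57, adjusted p = 0.447), and the groups then did not overlap.

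Abhd5, the coactivator of the lipase, was the steadiest of the genes by its fitted change. It had 17.5, 18.7 and 20.5 CPM in HFD and 23.8, 17.3 and 18.6 CPM in HFD+allantoin libraries, with the highest and the lowest value of all in the HFD+allantoin group. The log2 fold change was 0.07 (SE 0.18, 95% interval -0.34 to 0.49, adjusted p = 0.798) and 0.07 (adjusted p = 0.844) without HFD replicate 2. The antisense gene A730085K08Rik shares 950 exon bases with Abhd5 and had 0 counts in every library.

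Hilpda, an inhibitor of the lipase that is induced by hypoxia and by fatty acids, was the least abundant by counts, with 20 to 84 counts a library. Its levels were 5.35, 2.47 and 7.02 CPM in HFD and 3.37, 2.25 and 1.35 CPM in HFD+allantoin libraries. HFD replicate 2 was within the range of the HFD+allantoin group, and HFD replicates 1 and 3 were above it. The log2 fold change was -1.10 (SE 0.47, 95% interval -2.17 to -0.02, adjusted p = 0.121). Hilpda was called lower without HFD replicate 2, with -1.42 (SE 0.42, adjusted p = 0.0472).

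G0s2, the other inhibitor of the lipase, had 363, 271 and 13.5 CPM in HFD and 104.5, 96.9 and 84.3 CPM in HFD+allantoin libraries. HFD replicate 3 was 23.6-fold below the mean of the other 2 HFD libraries and below every HFD+allantoin library, while those 2 were above every HFD+allantoin library. The 3 HFD+allantoin libraries lay within 1.24-fold of each other and the HFD libraries within 27.0-fold. For G0s2 the log2 fold change was -1.18 (SE 0.81, 95% interval -3.01 to 0.65, adjusted p = 0.313), and -0.98 (adjusted p = 0.469) without HFD replicate 2. Without HFD replicate 3 it was -1.73 (SE 0.19, adjusted p = 0.00160). HFD replicate 3 also had the highest summed level of the 4 cholangiocyte markers, 48.9 CPM against 16.4 and 8.99 CPM in HFD replicates 1 and 2. Of that sum Sox9 gave 43.6 CPM. Fasting response genes set this library apart in both directions. Angptl4 was at 55.9 CPM there and at 216.5 and 280 CPM in HFD replicates 1 and 2, and Cyp4a14 at 407 against 160 and 97.0 CPM. The part of these differences in the G0s2 value was not tested. G0s2 lies within an intron of Lamb3 on the opposite strand and shares no exon base with it.

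**Figure D3:**
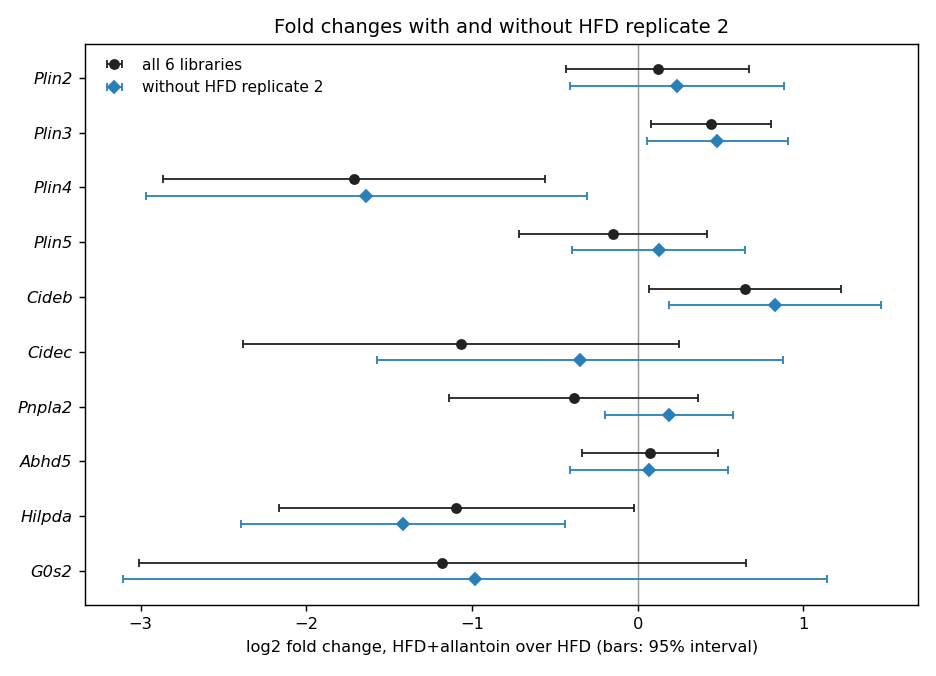
Log2 fold change of HFD+allantoin over HFD (horizontal axis) with its 95% interval for the 10 genes, with all 6 libraries (black circles) and without HFD replicate 2 (blue diamonds). Leaving out that library moves Cidec from -1.07 to -0.35 and Pnpla2 from -0.39 to 0.19, and moves Hilpda from -1.10 to -1.42.

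Levels can be compared between genes only per length, so CPM was divided by the exon length in kilobases. Exon length was that of all exons of a gene, merged over its transcripts. It was 3512 bases for Plin2 and 5956 for Abhd5, whose longest transcripts had 1888 and 3157 bases. For G0s2 both lengths were 871 bases. The orders given here hold for merged exons, and an order by transcript length was not computed. By merged exons G0s2 and Plin2 led in both groups. In HFD livers the means were 248 ± 208 CPM per kb for G0s2 (SD, n = 3) and 185 ± 43.6 for Plin2 (SD, n = 3), and the 2 ranges overlapped. Pnpla2 (35.7), Cidec (27.8), Plin5 (25.6), Cideb (20.1), Plin4 (11.5), Plin3 (6.44), Hilpda (4.49) and Abhd5 (3.17) followed in mean CPM per kb. In that order only Plin2 and Pnpla2 were neighbours whose ranges did not overlap. The order changed when HFD replicate 2 was left out, with Pnpla2 at 24.0, Plin5 at 21.1, Cideb at 17.7 and Cidec at 16.9 as means of the other 2 HFD libraries, so that Cidec moved below Plin5 and Cideb. The remaining genes kept their places, with G0s2 at 216, Plin2 at 171, Plin4 at 10.9, Plin3 at 6.28, Hilpda at 5.61 and Abhd5 at 3.19 CPM per kb.

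In HFD+allantoin livers the order was clearer. Plin2 was first with 201 ± 49.9 CPM per kb (SD, n = 3), G0s2 second with 109 ± 11.7 (SD, n = 3) and Cideb next with 31.5 ± 3.58 (SD, n = 3), and none of these overlapped the next. Pnpla2 (27.3), Plin5 (23.1), Cidec (13.3) and Plin3 (8.77) came next in mean CPM per kb with overlapping ranges. Plin4 (3.50), below and apart from Plin3, Abhd5 (3.34) and Hilpda (2.11) were at the end and overlapped in turn. Plin4 thus stood at 11.5 ± 6.51 CPM per kb (SD, n = 3) in HFD and at 3.50 ± 1.95 (SD, n = 3) in HFD+allantoin livers.

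Ratios between 2 genes of one library do not depend on how libraries are scaled, and 8 ratios of counts per kb were compared. With 3 libraries against 3, the exact two-sided permutation test cannot give a p below 0.10. Without HFD replicate 2 it cannot give one below 0.20, and every ratio then had a Benjamini-Hochberg adjusted p of 0.8. The ratio of Cidec to Cideb was the one whose groups did not overlap, with 0.859, 1.998 and 1.004 in HFD and 0.379, 0.199 and 0.643 in HFD+allantoin libraries. On the log2 scale it was lower with allantoin by a difference of -1.72, from 0.26 ± 0.65 (SD, n = 3) to -1.46 ± 0.85 (SD, n = 3), with an exact permutation p of 0.10 and 0.533 after Benjamini-Hochberg adjustment over the 8 ratios. Without HFD replicate 2 the difference was -1.35 and the groups still did not overlap.

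The ratio of the inhibitor G0s2 to its target Pnpla2 was 17.8, 5.25 and 0.627 in HFD and 4.48, 4.05 and 3.49 in HFD+allantoin libraries. The HFD values lay on both sides of the HFD+allantoin values, and the log2 difference was 0.04 (exact permutation p = 1). It was 0.25 without HFD replicate 2, 1.14 without HFD replicate 1 and -1.28 without HFD replicate 3, so that its sign rested on single libraries. The ratio of Hilpda to Pnpla2 was 0.207, 0.0378 and 0.258 in HFD and 0.114, 0.0742 and 0.0441 in HFD+allantoin libraries, with a log2 difference of -0.81 (exact permutation p = 0.5). With HFD replicate 2 left out, the groups of this ratio did not overlap and the difference was -1.68. For the coactivator, the ratio of Abhd5 to Pnpla2 was 0.125, 0.0530 and 0.140 in HFD and 0.149, 0.106 and 0.113 in HFD+allantoin libraries, which overlapped. Its log2 difference was 0.31 and turned to -0.13 without HFD replicate 2.

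Between perilipins, the ratio of Plin4 to its neighbour Plin5 was 0.824, 0.365 and 0.212 in HFD and 0.103, 0.108 and 0.246 in HFD+allantoin libraries, with a log2 difference of -1.52 (exact permutation p = 0.2), and of -1.58 without HFD replicate 2. HFD+allantoin replicate 6 lay above HFD replicate 3, so that these groups overlapped. The ratios of Plin5 to Pnpla2, of Plin2 to Plin5 and of Plin2 to Plin3 overlapped as well, with log2 differences of 0.11, 0.26 and -0.32, which became -0.09, 0.14 and -0.23 without HFD replicate 2.

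**Figure D4:**
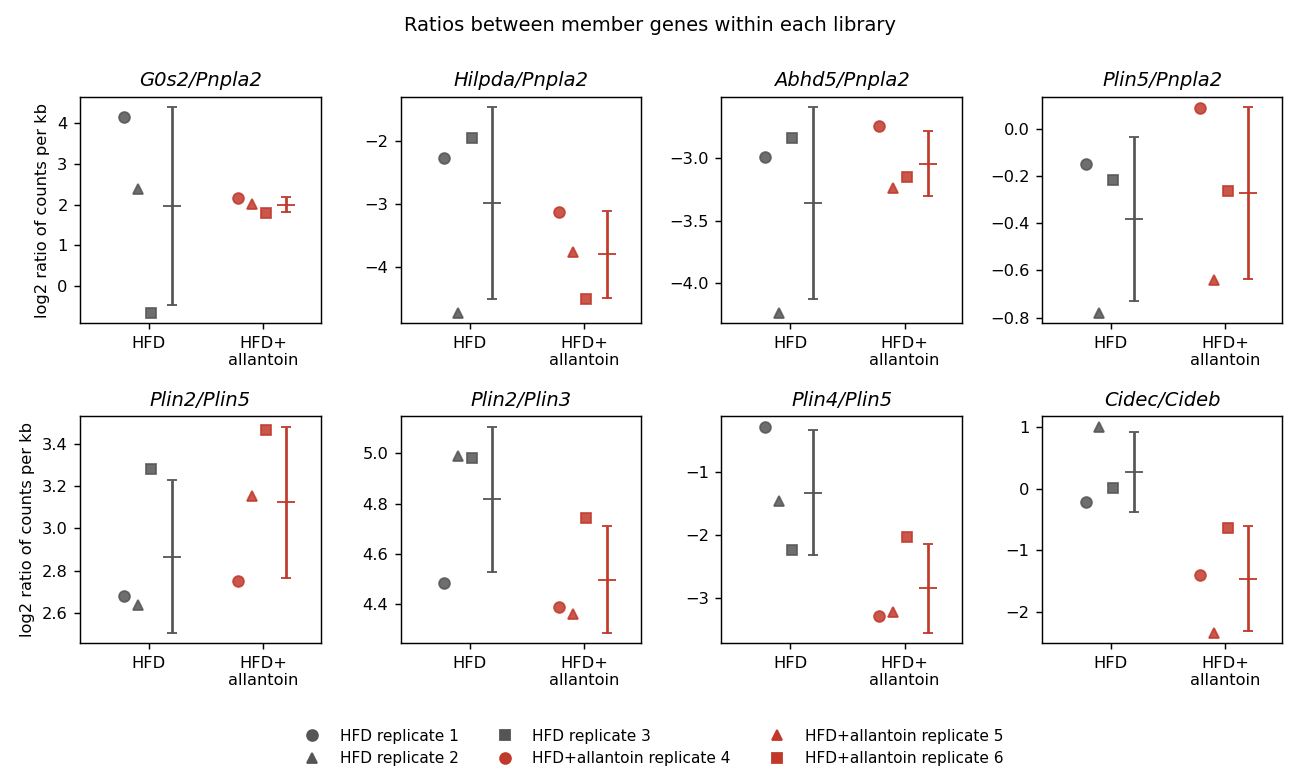
Log2 ratios of counts per kb for 8 pairs of genes (vertical axes, each with its own range) in 3 HFD libraries (grey) and 3 HFD+allantoin libraries (red), with the mean and SD of each group. The groups are apart for Cidec to Cideb alone, and the HFD libraries of G0s2 to Pnpla2 run from -0.67 to 4.16 around HFD+allantoin values of 1.80 to 2.16.

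The other genes of the droplet and of lipolysis were taken from a list of 44 genes, all found in the table and 42 of them tested. With allantoin 11 were called higher, 2 were called lower and 29 were not called, and the median log2 fold change was -0.01. Of all 12795 genes tested, 11.3% were called higher and 13.0% lower. Without HFD replicate 2 the counts were 9 higher and 3 lower with a median of 0.11, beside 9.83% and 12.5% of all genes, and without HFD+allantoin replicate 5 they were 5 higher and 1 lower. Scaling by library size only gave 17 higher and 0 lower. Plin1 and Pnpla3 had too few counts outside HFD replicate 2 to be tested.

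Of the 16 droplet-bound proteins, 3 were called higher and 1 lower. Pcyt1a, the rate-limiting enzyme that makes phosphatidylcholine for the surface of growing droplets, had 7.86, 19.1 and 27.2 CPM in HFD and 66.3, 78.6 and 69.8 CPM in HFD+allantoin libraries. The groups were far apart, with a log2 fold change of 1.98 (SE 0.37, adjusted p = 0.00767), and 567 of its exon bases overlap Slc51a on the other strand. Vps13c, a lipid transfer protein at contacts between organelles, rose by a log2 fold change of 1.15 (adjusted p = 0.00455), and Hsd17b11, a droplet-bound dehydrogenase, was also called higher. The call of Hsd17b11 was lost without any one library other than HFD replicate 3 (adjusted p = 0.0593 without HFD replicate 2). Lpcat1, an acyltransferase that makes phosphatidylcholine, was not called with all 6 libraries (adjusted p = 0.0709) and was called higher without HFD replicate 2 (log2 fold change 1.70, adjusted p = 0.0415). Its counts were low, with 8, 16 and 8 in HFD and 42, 39 and 32 in HFD+allantoin libraries. Aup1, a droplet protein that binds a ubiquitin-conjugating enzyme, had 123, 110.1 and 108 CPM in HFD and 78.3, 78.0 and 69.5 CPM in HFD+allantoin libraries (log2 fold change -0.60, adjusted p = 0.0228). It shares 23.0% of its exon bases with Htra2 on the other strand, and 6 of 15 alternatives ended its call, including library-size scaling (-0.17, adjusted p = 0.519) and the omission of any one HFD+allantoin library.

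Among 12 lipases and hydrolases, of which 11 were tested, 5 were called higher and none lower. Ces1g and Ces1d are carboxylesterases of hepatocytes with activity on triglyceride. Ces1g had 58.0, 68.6 and 86.4 CPM in HFD and 176, 226 and 226.5 CPM in HFD+allantoin libraries (log2 fold change 1.56, SE 0.20, adjusted p = 0.00319). Ces1d had 92.6, 251 and 215 CPM in HFD and 570.3, 624 and 451 CPM in HFD+allantoin libraries (log2 fold change 1.56, SE 0.34, adjusted p = 0.0125), and without HFD+allantoin replicate 5 its adjusted p was 0.0558. Lipa, the acid lipase of lysosomes, had 51.3, 63.5 and 86.5 CPM in HFD and 158, 149 and 157 CPM in HFD+allantoin libraries (log2 fold change 1.20, SE 0.21, adjusted p = 0.00584). For all of these genes every HFD+allantoin library was above every HFD library. Ces1f and Pnpla8 were the remaining calls. That of Ces1f was lost without any one of the 6 libraries (adjusted p = 0.0564 without HFD replicate 2, which left 4 calls), with upper-quartile scaling and without the filter on low counts, and that of Pnpla8 was kept in all 15 alternatives. Lipe, the hormone-sensitive lipase, was at 48.2 CPM in HFD replicate 2 and at 12.9 to 17.8 CPM in the other 5 libraries.

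Among 16 genes of droplet formation and triglyceride storage, of which 15 were tested, Fitm2, Dgat2 and Gpat4 were called higher and Fitm1 lower. Dgat2, which makes triglyceride, lost its call without any one library other than HFD replicate 3 (adjusted p = 0.0744 without HFD replicate 2) and with upper-quartile scaling. The call of Fitm2 was lost without any one HFD+allantoin library and that of Gpat4 without HFD+allantoin replicate 5, while both held without HFD replicate 2 (adjusted p = 0.0266 and 0.0130). In that fit Lpin2, a phosphatidate phosphatase, was called lower beside Fitm1 (log2 fold change -1.22, adjusted p = 0.0161). Fitm1 and Fitm2 encode related proteins of the endoplasmic reticulum that bind triglyceride at sites of droplet formation. Fitm1 had 128, 127 and 114.5 CPM in HFD and 70.2, 71.2 and 70.3 CPM in HFD+allantoin libraries (log2 fold change -0.80, SE 0.15, adjusted p = 0.00711). The groups were apart by more than their spread, but scaling by library size only and removal of the length and GC trend ended this call (highest adjusted p 0.202).

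**Figure D5:**
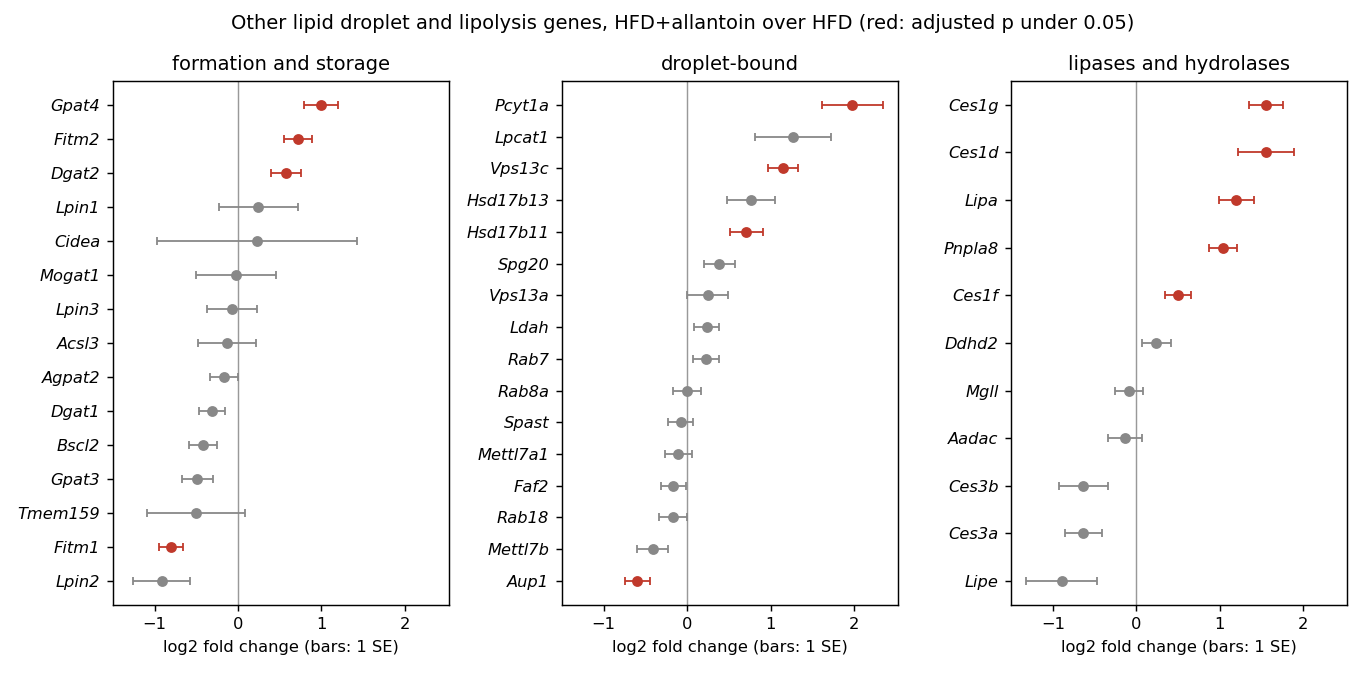
Log2 fold change of HFD+allantoin over HFD (horizontal axes, bars of 1 SE) for the 42 tested genes of droplet formation and storage, droplet-bound proteins, and lipases and hydrolases. Red marks genes called at an adjusted p under 0.05, 11 to the right of 0 and 2 (Fitm1 and Aup1) to the left.

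Of 10 transcriptional regulators of these genes, 4 were called higher and 1 lower, and 2 higher and 1 lower without HFD replicate 2. Ppara, the nuclear receptor of the fasting response of liver, had 39.1, 27.4 and 18.9 CPM in HFD and 109, 146 and 91.4 CPM in HFD+allantoin libraries (log2 fold change 2.02, SE 0.29, adjusted p = 0.00389). Its partner receptor Rxra rose by a log2 fold change of 0.92 (adjusted p = 0.00787). Mlxipl, the carbohydrate response factor ChREBP, fell by 1.95 on the log2 scale (adjusted p = 0.00513), from 187 to 475 CPM in HFD to 67.9 to 88.5 CPM in HFD+allantoin libraries. Srebf1, a regulator of fatty acid synthesis, was called higher at 0.64 (adjusted p = 0.0253), and this call was lost without HFD replicate 2 and without any one HFD+allantoin library. The remaining call was that of the coactivator Ppargc1a, with 3.36 to 5.18 CPM in HFD and 6.82 to 9.52 CPM in HFD+allantoin libraries (adjusted p = 0.0343), and it was lost without any one library other than HFD replicate 3 (adjusted p = 0.0767 without HFD replicate 2) and with the length and GC trend removed. Hif1a, of the hypoxia response, was at 20.5 to 31.8 CPM in HFD and at 31.3 to 40.4 CPM in HFD+allantoin libraries (adjusted p = 0.0697).

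Of 12 other genes of the PPARα and fasting response, 5 were called higher and 1 lower, and 4 higher and 1 lower without HFD replicate 2. These counts and those of the regulators stand beside 11.3% of all genes called higher and 13.0% lower, or 9.83% and 12.5% without that library. Acot1, an acyl-CoA thioesterase, rose by a log2 fold change of 2.10 (adjusted p = 0.00895), Cyp4a14, a fatty acid hydroxylase, by 2.26 (adjusted p = 0.0109), Cpt1a, which admits fatty acids to mitochondria, by 0.95 (adjusted p = 0.0106) and Ehhadh, of peroxisomal oxidation, by 1.03 (adjusted p = 0.0225). Without HFD+allantoin replicate 5 the calls of Cpt1a and Ehhadh were lost, and that of Ehhadh also without either of the other HFD+allantoin libraries. Fgf21, a fasting hormone named after its values were seen, had 27.3, 4.54 and 2.84 CPM in HFD and 1.76, 0.710 and 2.43 CPM in HFD+allantoin libraries (log2 fold change -2.82, adjusted p = 0.0403), and it was not called without HFD replicate 1, without any one HFD+allantoin library, with limma-voom or with the length and GC trend removed. Acadm, of mitochondrial oxidation, was the remaining gene called higher (log2 fold change 0.54, adjusted p = 0.0480), a call lost without any one library other than HFD replicate 3.

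Over the 6 libraries, the gene whose log-CPM profile was most like the mean profile of the 10 genes was Oas1c, with a Pearson r of 0.978, followed by 5033403H07Rik, Adamts9, Gm15682 and Gng11. These values describe 6 points that share their groups and their scaling, and include HFD replicate 2.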

How the data were processed

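The authors deposited raw counts, whole numbers of reads per gene, after filtering their Illumina reads and without normalization. The submitters' processing notes name the builds GRCm38 and mm10, and the aligner, counter and strand setting are not given in the sources used here. Of 54961 entries, 429 without an Ensembl identifier (0.197% to 0.306% of the counts) were left out, and 54495 of the others were matched to GENCODE M21. Counts were fitted with edgeR 4.0.16 (R 4.3.3; TMM, filterByExpr, quasi-likelihood test, group as the only term) and adjusted by the Benjamini-Hochberg method over 12795 genes. Alternatives used DESeq2 1.42.0, limma 3.58.1 (voom), other scalings and filters, and fits without each library. The procedure was tested on simulated data, which did not include the difference in mitochondrial share between the groups. Near copies (at least 95% identity over 200 bases) were searched with BLAST 2.17.0. Promoter windows came from RefSeq (GRCm38.p6), with all 10 genes matched. The members and lists were chosen with earlier results of these data known. Beside the members, called genes of the lists were named, up to 5 in each direction by fold change (mean of at least 1 CPM) among droplet genes, up to 4 by p among regulators and fasting genes, and the 5 genes most like the members in profile. Other called genes were named after their values were seen, to complete a count.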

Additional observations from a re-analysis of the deposited data

How the results depend on the processing

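The fit was repeated under 15 alternatives. The call of Plin4 kept its direction in all of them and was lost in 5, with library size only (-1.25) and without HFD replicate 1, HFD replicate 2, HFD+allantoin replicate 4 or HFD+allantoin replicate 5. Signs turned without a call for Plin5 with library size only (0.26) and with the length and GC trend removed (0.11), for Pnpla2 with library size only (0.010) and for Abhd5 with the length and GC trend removed (-0.054). Leaving out 1 library also turned signs, over ranges of -0.085 to 0.28 for Plin2, -0.32 to 0.13 for Plin5, -0.62 to 0.19 for Pnpla2 and -0.062 to 0.17 for Abhd5. Members called higher were 2 with library size only (Plin3 and Cideb), 1 without a filter on low counts and 1 with the length and GC trend removed (Cideb in both). Members called lower were 0 with library size only and 3 without the filter (Plin4, Cidec and G0s2). Without the filter the SE was 0.216 for Cidec and 0.219 for G0s2, against 0.582 and 0.81 in the main fit, at similar fold changes. For Aup1, whose call ended there, it was 0.216 against 0.152. Leaving out 1 library gave 0 to 2 members called lower and 0 called higher, 460 to 1773 genes called higher and 564 to 2008 called lower, and a median of the members from -0.43 (without HFD replicate 3) to 0.10 (without HFD replicate 2). Library size only raised the median over all genes by 0.41, to a members' median of 0.14, and called 3162 genes higher and 674 lower, against 1446 and 1666 with TMM, so that 82.4% instead of 46.5% of the calls were higher. With an absolute log2 fold change of at least 1 as well, 722 genes were higher and 974 lower. The other droplet genes had 17 called higher and 0 lower with library size only, 4 lower with DESeq2, 6 lower without the filter, 1 lower with the length and GC trend removed, and 5 to 11 higher and 1 to 4 lower without 1 library, and all of these alternatives except the one without HFD replicate 2 (9 higher, 3 lower) were added after seeing the data. Beyond the construction of each alternative, the cause of these differences was not tested. No paired analysis was possible because the groups share no replicate number. Hilpda, at 20 to 84 counts a library, is the member that depth limits most.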
